A study of Mus musculus with 9 samples.

Results

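Vegfa, Vegfc, Kdr, Nrp2, Foxc2 and Stab1 form the vascular endothelial growth factor (VEGF) axis and lymphatic endothelium genes of the mouse cDNA array used to profile acute lymphedema. They were found by the gene symbol that the array's annotation gives to each feature, a feature being a spot that carries 1 cDNA clone. The rule gave 12 features for the 6 genes, among 42624 features and 10554 named genes in all, and 9 of the 12 had a value on every array. RNA came from tail skin of female hairless SKH-1 mice, 3 weeks old when studied, with no transgene or mutant allele named. In the lymphedema state the skin of the tail was incised around its circumference and the main lymphatic trunks were cauterized, in the surgical sham state the skin was incised and the trunks were left alone, and normal mice had no operation. Skin distal to the surgical site was taken on day 14. Each state had 9 mice, combined into 3 pools of 3 mice, and each pool was hybridized once against RNA from whole embryos at e17.5. The skin was whole tissue, so fewer cells of a type and less RNA per cell cannot be told apart in any value given here.

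Values are log2 ratios of tail skin over the embryo reference, with the median of each array set to 0, so that 1 unit is a doubling. The labels of the samples and the methods disagree on the dyes, Cy5 being that of the skin in the labels and that of the embryo RNA in the methods. On each array 26 or 27 of 27 genes typical of embryos lay above the median of the deposited values and 13 to 15 of 18 genes typical of adult skin lay below it, so the deposited ratio was read as embryo over skin and its sign was turned. No source used here states the log base, which was taken as 2. The 3 normal arrays and lymphedema pool 1 stood apart from the other 5 arrays in which features had a value, with 186 features measured on those 4 arrays only, 1 feature measured on the other 5 only, and at most 45 under any other of the 126 ways to divide 9 arrays 4 against 5. What separated these 2 sets of arrays is not stated, and it was also fitted as a block. The precision is limited by the number of arrays, 3 per state, and a pool shows the spread between pools rather than between mice.

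Members of the VEGF family are secreted ligands that act on receptor tyrosine kinases of endothelial cells. Vegfa, acting through Kdr (VEGF receptor 2), drives growth and permeability of blood vessels, and Vegfc, acting mainly through VEGF receptor 3 with Nrp2 as coreceptor, drives growth of lymphatic vessels. Foxc2 is a transcription factor needed for lymphatic valves, and Stab1 (stabilin-1) is a scavenger receptor of lymphatic and sinusoidal endothelium and of a class of macrophages.

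In the fit over genes, where complete clones of a gene were averaged, Kdr, Nrp2 and Stab1 were the members past the threshold in lymphedematous skin. Kdr and Nrp2 had 1 complete clone each, so nothing was averaged for them. The 250 bases before the starts of these genes are shown because of that result. RefSeq windows (build GRCm38.p6) were matched for 5 of the 6 genes. The windows are chr5:75978456-75978705 on the minus strand for Kdr, chr1:62703067-62703316 on the plus strand for Nrp2 and chr14:31168642-31168891 on the minus strand for Stab1. Each is written 5′ to 3′ on the strand of its gene. Capitals mark matches on either strand to the GC box GGGCGG and to the ETS motif CAGGAA.
Kdr: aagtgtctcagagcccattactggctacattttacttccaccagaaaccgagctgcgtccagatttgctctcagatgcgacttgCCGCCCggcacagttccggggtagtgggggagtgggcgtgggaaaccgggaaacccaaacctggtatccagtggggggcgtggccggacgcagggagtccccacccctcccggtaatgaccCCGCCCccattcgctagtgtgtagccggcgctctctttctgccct
Nrp2: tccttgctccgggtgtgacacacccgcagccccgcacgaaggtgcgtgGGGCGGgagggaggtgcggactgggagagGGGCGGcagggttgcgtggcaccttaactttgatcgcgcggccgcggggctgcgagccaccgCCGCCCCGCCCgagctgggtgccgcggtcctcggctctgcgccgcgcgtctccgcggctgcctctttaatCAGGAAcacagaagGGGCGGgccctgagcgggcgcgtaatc
Stab1: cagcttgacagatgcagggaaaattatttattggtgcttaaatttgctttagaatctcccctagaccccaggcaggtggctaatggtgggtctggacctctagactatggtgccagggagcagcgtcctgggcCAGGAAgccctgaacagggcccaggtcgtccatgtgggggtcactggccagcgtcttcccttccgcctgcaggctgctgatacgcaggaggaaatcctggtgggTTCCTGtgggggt
The Kdr window held 2 GC boxes, and the Nrp2 window held 5 GC boxes, of which 2 overlap in a single capital run, and 1 ETS motif. Stab1 had no GC box and 2 ETS motifs in this window. Members that were not called had matches too, with 2 and 1 GC boxes in the 2 windows of Vegfa and 2 in that of Vegfc. The first of these Vegfa windows also held 1 ETS motif. Of 32851 windows of the same length, 32.7% held a GC box and 25.7% an ETS motif. The TATA box TATAAA, found in 12.4% of windows, was in none of the 6 windows of members, and the hypoxia response core ACGTG, found in 16.6%, was in 1 of the 2 windows of Vegfa and in no other. These matches describe letters only.

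Stab1 and Nrp2 were upregulated in lymphedematous skin against normal skin, by 2.55-fold and 2.08-fold in their called clones. In the fit over genes, where complete clones of a gene were averaged, Kdr also passed, at 1.99-fold. It had 1 complete clone, which missed the threshold in the fit over features (limma adjusted p = 0.0523). Vegfa and Foxc2 had higher means that missed it, and the clones of Vegfc differed in sign. Of the 9 tested features, 2 passed an adjusted p of 0.05 in limma, both higher, beside 2.94% of all 30702 features tested in either direction and 2.3% as higher. The median difference of the 9 features was 0.93, against 0.12 over all features. In 7 of them every lymphedema array lay above every normal array, which held for 21.7% of all features, and 1 lay wholly below, against 10.2%. The difference was above 0 in 8 of the 9 and in 62.1% of all features. No member feature passed as lower, against 0.635%. The members were chosen with earlier results of these data known, so the shares set beside their counts, here and below, describe and do not test. The count depended on the method, since significance analysis of microarrays (SAM) at 5% called 7 of the 9, beside 5585 of all 30702 features. With the array set as a block, 0 of the 9 passed in limma, beside 3 of all features. Over 18 alternative fits the call of Stab1 clone 2 held in 13 and that of Nrp2 clone 2 in 6. The other clone of Nrp2 differed by 0.0047 and was not in the main test.

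**Figure D1:**
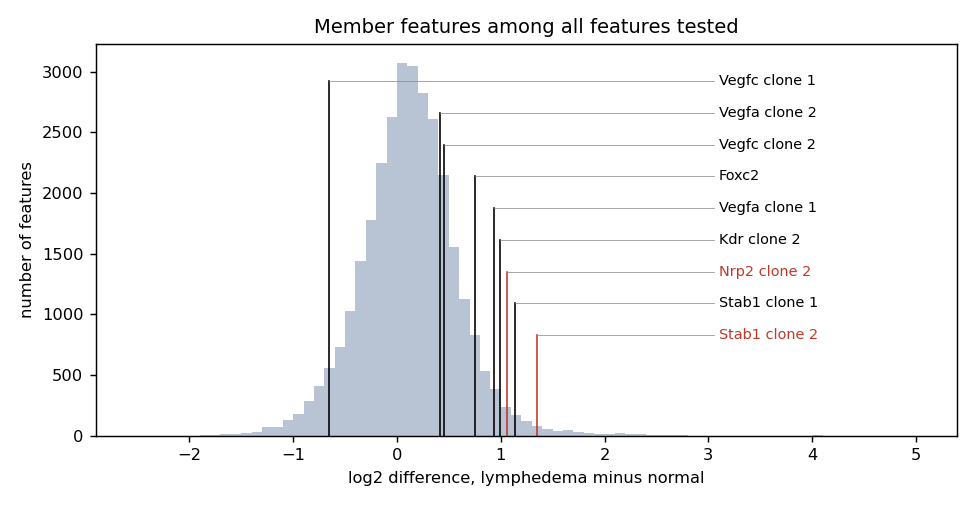
Histogram of the difference between lymphedema and normal (x axis, log2) over the 30702 features tested (y axis, number of features per bin of 0.1). Vertical lines mark the 9 tested features of the VEGF axis and lymphatic endothelium genes, of which Nrp2 clone 2 and Stab1 clone 2 (red) passed an adjusted p of 0.05. The line heights only separate the labels, and 8 of the 9 lines lie above 0.

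Vegfa, the main growth factor of blood vessels, was on the array as a pair of clones. Clone 1 (feature 2541) read −1.91, −1.68 and −2.11 in normal skin, −1.25, −0.93 and −0.72 in lymphedema and −1.69, −1.82 and −0.65 in sham. All 3 lymphedema values lay above the normal values, while sham pool 3 lay above every lymphedema value and the other sham pools lay among the normal values. The difference between lymphedema and normal was 0.93 ± 0.30 (SE, n = 3 per state), with a 95% interval of 0.30 to 1.57, and the limma adjusted p was 0.102. Clone 2 (feature 41912) read −0.085, 0.50 and 0.08 in normal skin, 1.28, 0.19 and 0.28 in lymphedema and 0.37, 0.66 and 0.02 in sham. Lymphedema pool 1 was the highest of the 9 and the other 8 arrays were intermingled. Its difference was 0.42 ± 0.30, with an interval of −0.23 to 1.06 and a limma adjusted p of 0.474. Averaged over both clones, Vegfa differed by 0.68 ± 0.19 (1.60-fold, limma adjusted p = 0.0812). Vegfa clone 1 was called without sham pool 3 (adjusted p = 0.0228 in limma).

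Vegfc, the lymphatic growth factor, had 3 clones, and they did not move together. Clone 1 (feature 5376) read 0.27, −0.54 and 0.08 in normal skin, −0.60, −0.83 and −0.73 in lymphedema and −0.55, −0.01 and 0.53 in sham. The 3 lymphedema arrays were the lowest of the 9. The lymphedema mean was 0.66 below normal on the log2 scale, with an interval of the difference from −1.28 to −0.04 and a limma adjusted p of 0.232. Clone 2 (feature 14304) read −0.78, −0.91 and −1.12 in normal skin, −0.64, −0.43 and −0.39 in lymphedema and −0.98, −0.66 and −0.80 in sham. Here the 3 lymphedema arrays were the highest of the 9. The difference was 0.45 ± 0.22, with an interval of −0.02 to 0.92 and a limma adjusted p of 0.279. Clone 3 (feature 38217) carries the same clone identifier as clone 2 and read 0.21, 0.47 and 0.67 in normal skin, 1.01 and 0.37 on the 2 lymphedema arrays with a value, and 1.03, 0.78 and 0.37 in sham. Its states overlapped, with a lymphedema mean 0.24 above normal, and it was not in the main test. Clones 2 and 3 lay on opposite sides of 0 on every array with both values, although they are annotated as the same cDNA. The mean over the 2 complete clones gave a difference of −0.10 (interval −0.54 to 0.34, limma adjusted p = 0.813), in which the opposite signs of clones 1 and 2 offset each other.

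**Figure D2:**
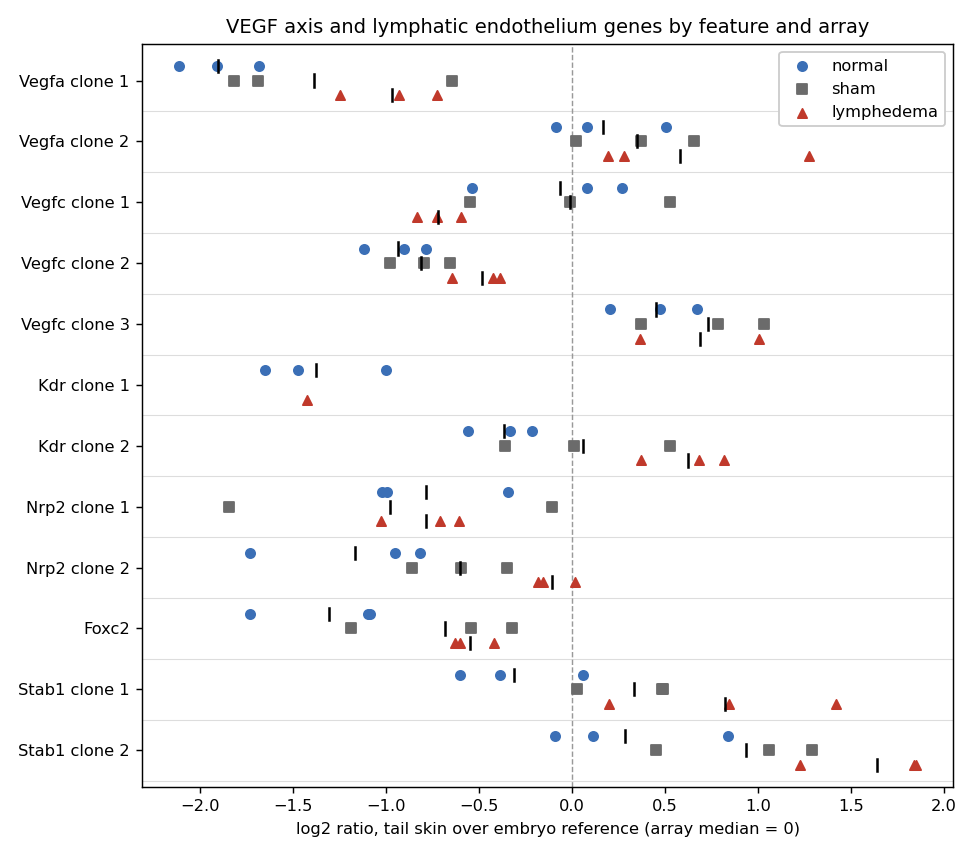
Log2 ratio of tail skin over embryo reference (x axis, array median at 0) for the 12 features of the 6 genes (rows), with 1 point per array for normal (blue circles), sham (gray squares) and lymphedema (red triangles). Black ticks mark the mean of a state with 2 or more values. Red triangles lie to the right of all blue circles for both Stab1 clones, Nrp2 clone 2, Kdr clone 2, Foxc2, Vegfa clone 1 and Vegfc clone 2, and to the left for Vegfc clone 1.

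Kdr, the main signaling receptor for Vegfa, rested on 1 complete clone. Kdr clone 2 (feature 41361) read −0.21, −0.56 and −0.33 in normal skin, 0.82, 0.68 and 0.37 in lymphedema and −0.36, 0.01 and 0.53 in sham. Every lymphedema array was above every normal array, and sham was spread from pool 1 among the normal values to pool 3 among the lymphedema values. The difference was 0.99 ± 0.26 (1.99-fold, interval 0.44 to 1.54). Its limma adjusted p was 0.0523 in the fit over features and 0.0445 in the fit over genes, which differ both in the moderated spread and in the number of tests. The gene call was lost without any of the 3 normal pools, any of the 3 lymphedema pools or sham pool 2, with limma adjusted p from 0.0600 to 0.178. It was also lost with no centering, quantile normalization, the unimputed filter of at least 2 values per state or the replicate block (limma adjusted p from 0.0528 to 0.0790). The array set block lost it too. Kdr clone 1 (feature 27796) had values only on the 4 arrays set apart above, −1.0, −1.47 and −1.65 in normal skin and −1.42 in lymphedema pool 1. That lymphedema value lay between normal values, 0.05 below their mean, where clone 2 had lymphedema pool 1 at 1.19 above the normal mean.

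Nrp2, a coreceptor for Vegfc and a receptor for class 3 semaphorins, also had 2 clones that differed. Clone 2 (feature 32216) read −1.73, −0.82 and −0.95 in normal skin, 0.02, −0.16 and −0.18 in lymphedema and −0.35, −0.86 and −0.60 in sham. The 3 lymphedema arrays were the highest of the 9, and sham lay between, overlapping normal by pool 2 alone. The difference between lymphedema and normal was 1.06 ± 0.27, with an interval of 0.49 to 1.62 and a limma adjusted p of 0.0452. Normal pool 1 was the lowest array, and without it the difference was 0.78 with a limma adjusted p of 0.196. The call was also lost without normal pool 2 or 3 or without any lymphedema pool, with limma adjusted p from 0.0751 to 0.160. Clone 1 (feature 21578) read −0.34, −0.997 and −1.02 in normal skin, −0.61, −0.71 and −1.03 in lymphedema and −0.11 and −1.85 on the 2 sham arrays with a value. Its states overlapped, and the lymphedema and normal means differed by 0.0047. The upregulation of Nrp2 thus rests on clone 2, since clone 1 had no value on sham pool 3 and did not enter the averaged test.

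Foxc2, the transcription factor of lymphatic valves, was measured by 1 clone (feature 10776). Its values were −1.73, −1.09 and −1.09 in normal skin, −0.60, −0.63 and −0.42 in lymphedema and −1.19, −0.54 and −0.32 in sham. All lymphedema arrays exceeded all normal arrays, and sham pools 2 and 3 lay among or above the lymphedema values. The difference between lymphedema and normal was 0.75 ± 0.27 (1.69-fold, interval 0.18 to 1.33), and the limma adjusted p was 0.141. Among the 9 tested features Foxc2 had the smallest difference between lymphedema and sham, 0.13 (interval −0.44 to 0.71).

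Stab1, the endothelial and macrophage scavenger receptor, was the member with the largest difference, and its 2 complete clones were both higher. Clone 2 (feature 42972) read −0.09, 0.12 and 0.84 in normal skin, 1.85, 1.84 and 1.22 in lymphedema and 0.45, 1.06 and 1.29 in sham. Clone 1 (feature 32585) read −0.61, −0.39 and 0.06 in normal skin, 0.85, 1.42 and 0.20 in lymphedema and 0.49, 0.03 and 0.48 in sham. In both clones every lymphedema array was above every normal array, lymphedema pool 3 was the lowest of its state and overlapped sham, and normal pool 3 was the highest of its state. The difference was 1.35 ± 0.30 for clone 2 (interval 0.71 to 2.00, limma adjusted p = 0.0275) and 1.13 ± 0.30 for clone 1 (2.19-fold, interval 0.49 to 1.78, limma adjusted p = 0.0571). Averaged, Stab1 differed by 1.24 ± 0.27, or 2.37-fold, with a limma adjusted p of 0.0367. The call of clone 2 was lost without normal pool 1 or 2 or lymphedema pool 1 or 2, with limma adjusted p from 0.106 to 0.149 and differences from 1.16 to 1.27.

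The array sets bore on every comparison, because the set of 4 arrays holds all normal pools, lymphedema pool 1 and no sham pool. With the set as a block, no member feature and 3 of all features passed in limma between lymphedema and normal. The limma adjusted p was 0.220 for Stab1 clone 2, 0.291 for Nrp2 clone 2 and 0.276 for Kdr clone 2. Within the set of 4 arrays, lymphedema pool 1 exceeded the normal mean by 1.56 for Stab1 clone 2, 1.18 for Nrp2 clone 2 and 1.19 for Kdr clone 2. Within the other set, lymphedema pools 2 and 3 exceeded the sham mean by 0.60, 0.43 and 0.47 in the same order. These 3 features belong to the genes called on the same arrays, so their signs within the sets are no separate support for the calls. For them the direction was the same within each set, but the first contrast has a single lymphedema array. The differences of the block fit are those of the first contrast, so the adjusted p given for it are also its test. The second contrast was tested by the fit without lymphedema pool 1, in which none of the 9 features passed (limma adjusted p from 0.883 to 0.966).

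Surgical sham skin had higher means than normal skin for all 9 tested features, with a median difference of 0.52 against 0.07 over all features, and none passed the test. The largest were Stab1 clone 2 at 0.65 (interval 0.004 to 1.29), Stab1 clone 1 at 0.64 and Foxc2 at 0.62, with limma adjusted p of 0.641, 0.643 and 0.605. At an unadjusted threshold of 0.05, 3 of the 9 passed, all higher, where 5.35% of all features did. No member feature had sham wholly above or below normal, where 8.58% of all features were wholly above and 2.79% wholly below. SAM and the other fits also called 0 members. Over all features 0.0195% were called, and a difference above 0 was found in 59.5%, so that 9 of 9 is read beside that share. Skeletal muscle markers moved between the same arrays, with 8 of 8 above 0 in sham against normal, a median difference of 0.90, 4 past an unadjusted threshold of 0.05 and none past the adjusted one in limma. Their array medians were −4.75, −3.78 and −2.86 in sham, from −5.22 to −4.32 in normal skin and from −4.98 to −4.37 in lymphedema, so that sham pools 2 and 3 were the highest, and their part in the result was not tested. This comparison and that of lymphedema with normal share the normal arrays. No array set holds both normal and sham pools. These arrays alone therefore cannot tell a difference between the states from a difference between the sets.

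Lymphedema against sham skin gave no called member in limma or SAM, where 0.00326% of all features were called by limma. The median difference of the 9 features was 0.42, against 0.06 over all features, and 8 of 9 were above 0, against 58.1% of all features. Stab1 clone 2 differed most among the higher ones, by 0.70 (interval 0.06 to 1.35, limma adjusted p = 0.703), followed by Kdr clone 2 at 0.56 (interval 0.01 to 1.12). Nrp2 clone 2 and Vegfc clone 2 had every lymphedema array above every sham array, which held for 5.39% of all features, with differences of 0.50 and 0.32. Vegfc clone 1 was wholly below sham, which held for 3.33%, with a difference of −0.71 (interval −1.33 to −0.09, limma adjusted p = 0.689). At an unadjusted threshold of 0.05, 2 features passed as higher (Stab1 clone 2 and Kdr clone 2) and 1 as lower (Vegfc clone 1), beside 4.06% and 2.63% of all features. The intervals of 5 of the 9 features reached above 1 log2 unit, so a missing call does not show equal levels. In 8 of 9 features the means fell in the order lymphedema, sham, normal, an order found in 34.9% of all features, and the exception was Vegfc clone 1. No neighboring pair with sham in it passed the test for any member. Lymphedema pool 1 and the sham pools lie in different array sets, so the sets bear on this comparison too.

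**Figure D3:**
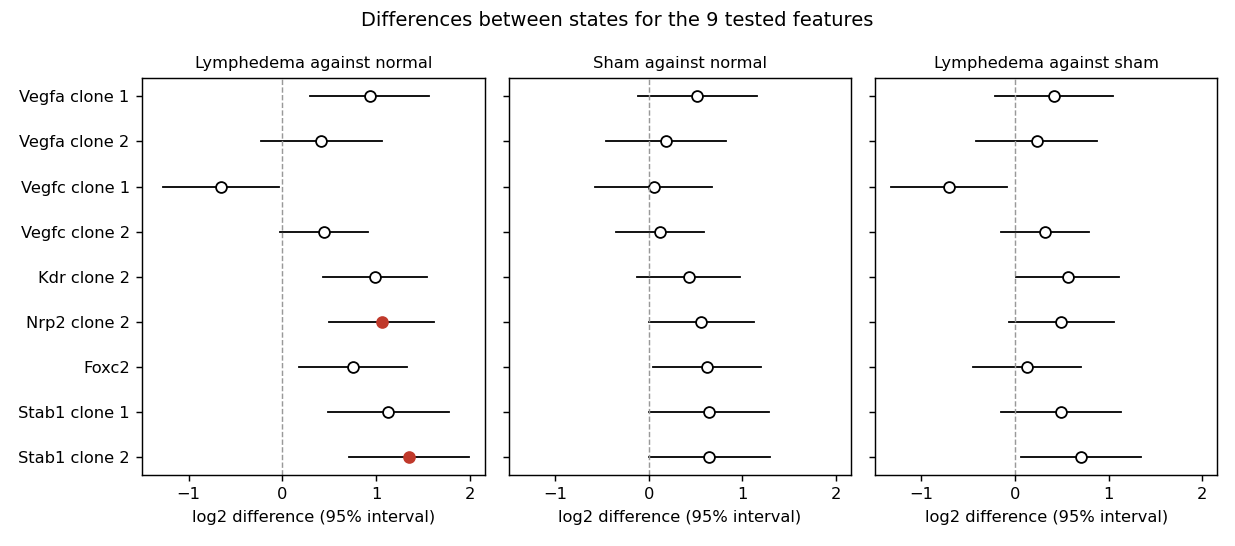
Difference between states (x axis, log2, point) with its 95% interval (bar) for the 9 features tested (rows), in the comparisons of lymphedema with normal, sham with normal and lymphedema with sham. Red points passed an adjusted p of 0.05 in limma and open points did not. Only Nrp2 clone 2 and Stab1 clone 2 in the comparison of lymphedema with normal are red.

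The wider VEGF and lymphatic pathway was described by a list of 70 genes, of which 37 were named on the array and 32 were tested. Against normal skin 3 of the 32 were upregulated in lymphedema, Kdr, Nrp2 and Stab1, and none was downregulated, beside 2.83% and 0.602% of all 8644 genes (3.44% in either direction). All 3 are members, and 0 of the other 26 genes passed in limma. The median difference of the 32 genes was 0.16, against 0.10 over all genes, and 23 were above 0, beside 62% of all genes. At an unadjusted threshold of 0.05, 10 were higher and 1 lower, beside 14.8% and 5.71% of all genes, and 5 of the 10 were members. SAM called 10 of the 32, and in its run over features it called 5585 of 30702. Without the members, the median difference of the other 26 genes was 0.13, and 18 of the 26 were above 0. Nrp1, the coreceptor that Kdr shares with semaphorins, read −1.80, −1.20 and −1.03 in normal skin, −0.43, −0.63 and −0.85 in lymphedema and −0.81, −0.62 and −0.80 in sham as the mean of 3 clones. Both operated states lay above normal and overlapped each other. The difference of Nrp1 between lymphedema and normal was 0.71 ± 0.22 and the limma adjusted p was 0.0980. Flt1, the VEGF receptor 1 that binds Vegfa and placental growth factor, differed by 0.06 over 5 clones, with an interval of −0.31 to 0.43, and its states overlapped. Pgf, the placental growth factor, read 0.20 and 0.40 on the 2 normal arrays with a value, 1.25, 0.69 and 0.71 in lymphedema and 0.005, 0.42 and 1.10 in sham, and was not in the main test. Chosen after their values were seen, the matrix genes Fn1 and Emilin1 differed by 0.93 and 0.92, the ETS factor Elk3 by 0.83 and the sphingosine phosphate receptor S1pr1 by 0.76, and the sphingosine kinase Sphk1 was the gene below at the unadjusted threshold, at −0.50. None of these 5 passed the adjusted threshold. For Fn1, sham pools 1 and 3 (−2.01 and −1.62) lay above every lymphedema value, the highest of which was −2.14. For Elk3, sham pool 3 (−0.11) also lay above them, and for Emilin1 sham pool 3 (−1.82) lay among them. The other sham pools of Elk3 and Emilin1 lay among or below the normal values. VEGF receptor 3 (Flt4), Prox1, Lyve1, Pdpn, Vegfb and Vegfd have no feature under these symbols in the annotation used and were not analysed here. Of 12 lymphatic endothelial markers, 2 were tested, Foxc2 and the integrin Itga9, and Itga9, named because it was the other tested marker, differed by −0.08 (interval −0.93 to 0.76).

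**Figure D4:**
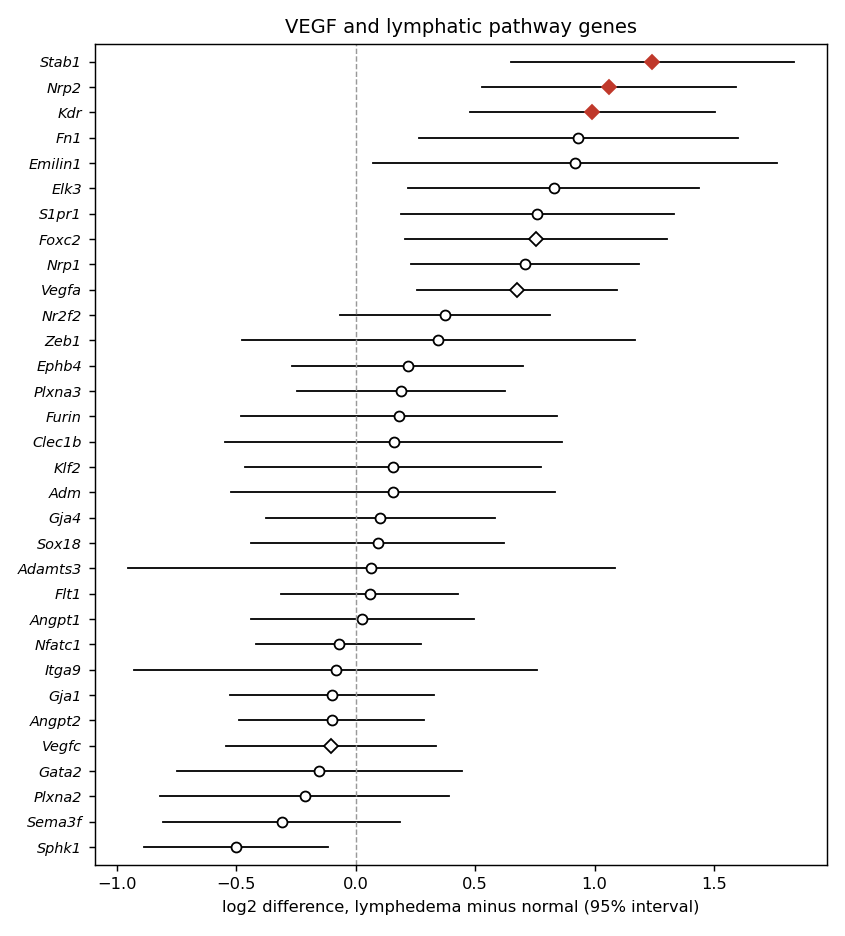
Difference between lymphedema and normal (x axis, log2, clones of a gene averaged) with its 95% interval for the 32 tested genes of the VEGF and lymphatic pathway list (rows, sorted). Diamonds are the 6 member genes, circles the other genes, and red marks an adjusted p under 0.05 in limma. The 3 red genes, Stab1, Nrp2 and Kdr, are the top 3 rows, and Vegfc lies at −0.10.

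Genes downstream of VEGF receptors did not pass the test. Of 23 tested kinases, phosphatases and effectors of receptor signaling, 0 passed in limma in either direction, 2 were higher and 0 lower at an unadjusted threshold of 0.05, beside 14.8% and 5.71% of all genes, and their median difference between lymphedema and normal was 0.15 against 0.10 over all genes. Of 15 tested genes of the hypoxia response, an input to Vegfa transcription, 1 was upregulated, the glycolytic enzyme Pgk1, beside 2.83% of all genes. The median was 0.36, with 10 above 0, beside 62% of all genes, and 5 below, the lowest at −0.48. At the unadjusted threshold 4 were higher and 1 lower, beside the shares just given. Their array medians overlapped, from −0.375 to −0.168 in normal skin, from −0.337 to 0.098 in lymphedema and from −0.277 to −0.054 in sham. Pgk1 differed by 0.91 ± 0.22 (limma adjusted p = 0.0451), with sham between the other states at a mean of −0.52.

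Markers of cell types that carry these genes moved between the same arrays. Their counts stand beside 2.83% of all genes called higher, 62% with a difference above 0 and a median of 0.10 over all genes. Of 11 tested markers of blood endothelium, among them Flt1 of the pathway list, Selp (P-selectin) and Eng (endoglin) were upregulated in lymphedema, by 1.12 ± 0.19 and 0.92 ± 0.21 with limma adjusted p of 0.0175 and 0.0399, 9 of 11 were above 0 and the median difference was 0.55. Their array medians ran from −0.75 to −0.54 in normal skin, from 0.02 to 0.23 in lymphedema and from −0.78 to 0.36 in sham. Selp was nearly as high in sham, where its mean was 2.07 against 2.25 in lymphedema and 1.13 in normal skin. Of the 14 tested macrophage markers other than Stab1, 6 were upregulated and 13 were above 0, with a median difference of 1.01. The complement gene C1qa differed by 2.03 ± 0.34, the lysozyme Lyz2 by 1.95 ± 0.38, C1qc by 1.63 ± 0.33 and Aif1 by 1.45 ± 0.35, and F13a1 and Fcgr1 differed by 0.88 and 0.68. Macrophage array medians ran from −0.57 to −0.41 in normal skin, from −0.001 to 0.50 in lymphedema and from −0.61 to 0.29 in sham. Of 8 tested pericyte and smooth muscle markers only Mcam passed (0.96 ± 0.22, limma adjusted p = 0.0383), and the median was 0.64. Fibulin 1 (Fbln1) was the 1 of 9 fibroblast markers that passed, at 1.28 ± 0.23. Of the 9, 7 were above 0 and 2 below, the lowest at −0.74, and the median was 0.43. Fibroblast array medians ran from −0.37 to 0.02 in normal skin, from −0.62 to −0.13 in lymphedema and from −1.33 to −0.495 in sham. In limma 0 of 11 keratinocyte markers and 0 of 8 skeletal muscle markers passed. At an unadjusted threshold of 0.05, 3 (2 higher and 1 lower) and 0 passed, beside 14.8% of all genes higher and 5.71% lower. Keratinocyte array medians overlapped between normal skin (1.88 to 2.04) and lymphedema (1.66 to 2.18), with a median difference of 0.03. In sham they ran from 2.10 to 2.52, above every normal array. With the array set as a block, a fit added after the data were seen, none of these 10 called marker genes nor Pgk1 passed (limma adjusted p from 0.239 to 0.429). Within the sets all 11 were above 0, by 0.67 to 2.15 for lymphedema pool 1 over normal and by 0.0007 (F13a1) to 1.28 for pools 2 and 3 over sham. The 11 were picked by calls that used the same lymphedema and normal arrays, so these signs are no separate support for the calls. No gene of these lists reached the threshold between sham and either other state. The part that the amount of endothelium or of macrophages had in the results for Kdr, Nrp2 and Stab1 was not tested.

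**Figure D5:**
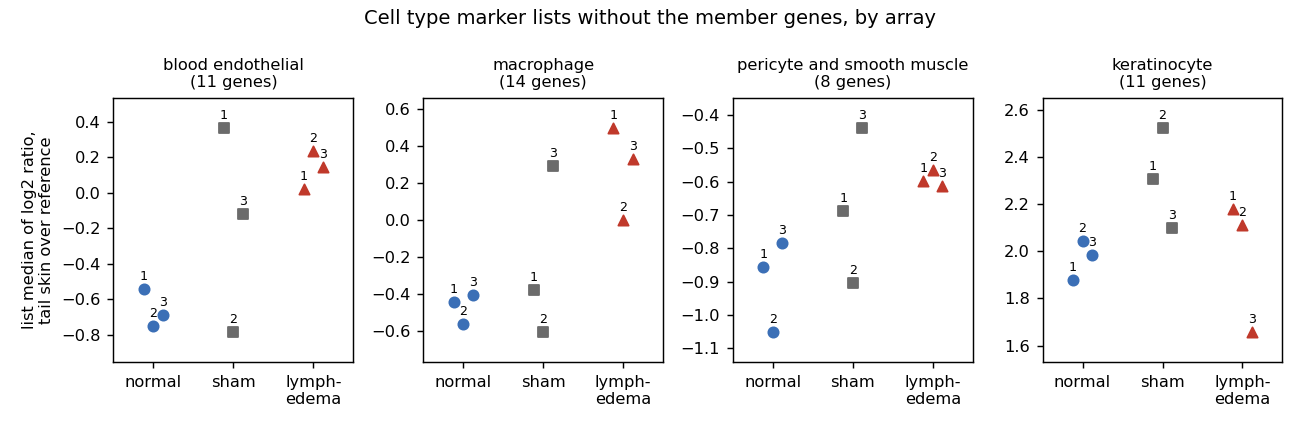
Median log2 ratio of tail skin over reference (y axis, scale differs between panels) over the tested markers of 4 cell types, members left out, with 1 point per array, numbered by pool, for normal (blue), sham (gray) and lymphedema (red). The lymphedema arrays lie above the normal arrays for blood endothelial, macrophage and pericyte markers, where sham pools are spread across the range. For keratinocyte markers the lymphedema arrays overlap the normal arrays, and all sham pools lie above the normal arrays.

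The genes whose pattern over the 9 arrays was most like that of each member were found by Pearson's r of the values averaged over clones, as a description over arrays that share a reference and their states. For Stab1 they were Arsb (0.97), Hsp90b1 (0.97) and Calm2 (0.97), for Nrp2 Smpdl3a (0.97), H2-Aa (0.96) and Asb1 (0.96), and for Kdr Cald1 (0.99), Dcbld2 (0.98) and Kif9 (0.97). For Vegfa they were Ccr2 (0.97), Pxk (0.97) and Lsm3 (0.96), for Vegfc Il15 (0.98), Nrarp (0.92) and Nek4 (0.90), and for Foxc2 Sdcbp (0.95), Nid1 (0.95) and Serpinb1a (0.95). Over all 8644 genes the median of the highest r with another gene was 0.96, so values of this size are usual among 9 arrays.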

How the data were processed

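Each deposited value is the log2 ratio between both channels of a spot, which the authors made from GenePix features with background subtraction and dye normalization, per the methods. The filter on reference signal and the imputation that the methods describe are not in the deposited table, and signal over background was not analysed here. Here the sign was turned, each array was centered on its median, and group means were fitted with limma 3.58.1 (lmFit and eBayes, all 9 arrays) in R 4.3.3 on the 30702 features with a value on every array. Tests were two-sided, with Benjamini-Hochberg adjustment across every feature, or across 8644 genes when clones of a gene were averaged first, and a threshold of 0.05. SAM was written anew, with all 20 permutations of 2 groups and a false discovery rate of 5%. The scripts were tested on simulated data.

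The 6 genes and the gene lists were chosen with earlier results of these data known. Genes named in the text were the members, pathway and cell type list genes past the threshold, VEGF ligands and receptors, and the 3 genes most like each member, apart from Itga9 and those said to be chosen after their values were seen. The embryo and adult skin lists served for the direction of the ratio only. The fits were repeated without centering, with a common median absolute deviation, after quantile normalization, with features of 2 or more values in each state (as they are, or imputed from 10 nearest neighbors), on the arrays of the 2 states compared, with SAM, with blocks for the replicate number or the array set, and without each array. Promoter windows came from RefSeq tables. Python 3.11.15 with matplotlib 3.10.9 made the figures. Between 1.34% and 12.6% of an array's values were missing. Nothing in the labels ties a pool to another beyond its number.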

Additional observations from a re-analysis of the deposited data

How the results depend on the processing

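The precision is that of 3 arrays per state, and intensities, which would show how far a spot stood above background, were not used. The number of member features past the threshold between lymphedema and normal was 2, and it became 1 with no centering, with quantile normalization, with features of at least 2 of 3 values per group (imputed or not) and with the replicate block, 3 with scaling to one median absolute deviation, 5 with the arrays of the 2 groups only, 0 with the array set block and 7 with SAM. Leaving out each array in turn gave 0 to 5, the highest without sham pool 3. Genes of the pathway list past the threshold numbered 3, and 1 with no centering, quantile normalization or at least 2 values without imputation, 7 with the 2 groups only, 0 with the replicate block or array set block, 10 with SAM and 0 to 5 with an array left out. All features past the threshold numbered 902, and 2614 with the 2 groups only, 3 with the array set block, 5585 with SAM and 146 to 1999 with an array left out. For sham against normal the 6 features became 3 with no centering or imputation, 0 with quantile normalization, unimputed values or the array set block, 13 with the replicate block, 11 with SAM and 0 to 78 with an array left out. For lymphedema against sham the single feature became 7 with median absolute deviation scaling, 0 with the 2 groups only or the array set block and 0 to 353 with an array left out, the highest again without sham pool 3. No member feature passed in either comparison with sham under any alternative. The call of Stab1 clone 2 held in 13 of 18 alternatives (adjusted p from 0.0141 to 0.220, limma) and that of Nrp2 clone 2 in 6 of 18 (0.0260 to 0.291). In the fit over genes the call of Kdr held in 6 of 18.

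Only small differences changed sign. Foxc2 between lymphedema and sham became −0.00659 with quantile normalization and ranged from −0.119 (without sham pool 1) to 0.314 with an array left out. Vegfa clone 2 between lymphedema and sham became −0.114 with the array set block and ranged from −0.114 (without lymphedema pool 1) to 0.427. Vegfc clone 2 between sham and normal became −0.112 with the array set block. No array set holds both of these states, so that block compares sham with normal only through the lymphedema arrays. Vegfc clone 1 between sham and normal was −0.185 without normal pool 2 and ranged from −0.217 (without sham pool 3) to 0.322. Averaged over clones and with an array left out, Vegfc ranged from −0.214 to 0.0178 (without normal pool 1) between lymphedema and normal. Over all alternatives its lowest value there was −0.261. Between sham and normal it ranged from −0.0497 (without sham pool 3) to 0.266 with an array left out, and was −0.0222 without normal pool 2. The causes were not tested. With the replicate block, Stab1 clone 2 kept its call (limma adjusted p = 0.0304) and Nrp2 clone 2 did not (0.0617). Same-numbered arrays had deviations correlated at −0.25 to 0.30, with 1 of 9 pairs above 0.1, and 3 of 9 arrays were most like the array of their own number, so the numbers were not taken to pair the pools.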
